A study of Bos taurus with 27 samples.

Results

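Ileum transcripts of calves first given colostrum at 12 h of life were set against those of calves given it at birth. The comparison took every library whose title names either feeding time, 18 of the 27 in the series, with 9 calves in each group, and every gene in the count table. All were male Holstein calves sampled at 51 h of age, and calves had been allotted to a feeding time at random. The 0 h group received colostrum straight after birth and the 12 h group after a wait of 12 h. With 1 age at sampling, the 12 h calves also had less time since colostrum. Age at first colostrum and time since it cannot be told apart. The remaining group, fed at 6 h, entered the fit to help estimate the spread between calves, and its levels are given for the genes named. Each library held the ileum RNA of 1 calf, and replicates are therefore animals, all of 1 sex, 1 breed and 1 age.

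Colostrum is the first milk of the cow and carries immunoglobulins, growth factors and nutrients. The newborn calf has almost no circulating antibody of its own and takes up intact immunoglobulin across the small intestine for a short time after birth, until the epithelium loses this capacity. The ileum, the last stretch of the small intestine, absorbs bile acids and in calves holds a long Peyer's patch, a lymphoid tissue in which B cells multiply. Whole tissue therefore mixes epithelial, lymphoid, muscle and stromal RNA, and in such samples fewer cells of a type and less RNA per cell cannot be told apart.

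The count table names genes by Ensembl cattle identifier and does not pair them with symbols. The gene table used here as a reference gave a symbol for 0 of the identifiers. The tissue could not be checked against marker genes, pathway lists could not be counted, and no sequence or genome position is printed. The genes described individually are the 2 higher and the 2 lower ones with the smallest unadjusted p at 12 h.

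Library totals differed more between the calves of the 12 h group than between those of the 0 h group. At 0 h they ran from 1152690 to 3234226 counts with a median of 1626626, and at 12 h from 1137558 to 7125552 with a median of 3326867. At 12 h, 5 libraries (replicates 4 to 8, called deep here) held more counts than any library at 0 h, and the other 4 held 1774918 or fewer. Mean totals were 1925900 ± 749300 and 3116300 ± 1984000 (SD, n = 9), with a two-sided exact permutation p of 0.107 and an adjusted p of 0.724 over 9 library measures. The deepest library, replicate 7 at 12 h, also gave 42.7% of its counts to its 10 most abundant genes, against a next highest share of 36.9% in its group.

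The threshold was passed by no gene in either direction. By edgeR's quasi-likelihood test over 11429 genes, 0 passed an adjusted p of 0.05 (0% of genes tested), and the smallest adjusted p was 0.116. An unadjusted p under 0.05 was reached by 400 genes (3.5% of genes tested), of which 217 were higher and 183 lower. DESeq2, which tested 22939 genes, called 3 (0.0131% of genes tested) and had 522 at an unadjusted p under 0.05. With limma voom 0 genes were called and 464 had an unadjusted p under 0.05. Without the deepest library edgeR also called 0, with 370 at an unadjusted p under 0.05. DESeq2 and the fit without the deepest library tested other numbers of genes, so their counts cannot be compared with the 400 as shares.

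The higher of the genes named are described first. ENSBTAG00000001027 stood at 87.7 to 143.6 normalised CPM at 0 h (CPM, a count relative to the TMM-scaled size of its library), with a median of 114.1. At 12 h its lowest, median and highest values were 145.1, 162.1 and 221.8 CPM. The lowest calf of the 12 h group lay just above the highest calf of the 0 h group, so the groups did not overlap. The means were 117.2 ± 17.9 and 174.2 ± 28.8 CPM (SD, n = 9), a log2 fold change of 0.56 (SE 0.109, 95% confidence interval 0.34 to 0.784) or 1.48-fold, with an edgeR adjusted p of 0.116. Each library held between 99 and 960 counts of this gene.

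The same gene lay at 109.1 to 206.3 CPM in the calves fed at 6 h, with a median of 152.4. Of these, 5 of 9 calves were above every calf at 0 h and 4 of 9 below every calf at 12 h, so the 6 h group overlapped both others. Set against 0 h, the 6 h calves gave a log2 fold change of 0.35 with an SE of 0.111 (adjusted p by edgeR, 1). The step from 6 h to 12 h came to 0.21 with an SE of 0.109 (adjusted p by edgeR, 0.926). The comparisons share calves, so these values are not independent of the one at 12 h. Within the 12 h group the 5 deep libraries had 168.5 ± 27.8 CPM (SD, n = 5) and the other 4 had 181.4 ± 32.6 (SD, n = 4), all of them above the 0 h calves.

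Whether ENSBTAG00000001027 counted as called depended on the fit. The log2 fold change lay between 0.50 and 0.65 over 17 other settings, and between 0.51 and 0.61 in 18 fits that each dropped 1 calf. It was called in 4 of those 17 settings and in 1 of the 18 fits without a calf, the one without replicate 9 at 0 h (log2 fold change 0.61, edgeR adjusted p = 0.0424). That calf held the highest level of its group. The adjusted p over the 17 settings ran from 0.000494 to 0.674.

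ENSBTAG00000003566 was the other gene with no overlap. At 0 h it ran from 15.1 to 18.6 CPM with a median of 17.3, the narrowest range of the 4 genes relative to its level. At 12 h the lowest, median and highest values were 19.75, 22.2 and 28.03 CPM. All 9 calves at 12 h lay above all 9 at 0 h, by about 1 CPM at the closest point. The means of 17.04 ± 1.37 and 23.8 ± 3.36 CPM (SD, n = 9) gave a log2 fold change of 0.47 (SE 0.123, 95% confidence interval 0.22 to 0.72) or 1.39-fold, with an edgeR adjusted p of 0.9997. It was covered by 17 to 57 counts per library at 0 h and 23 to 168 at 12 h. The calves fed at 6 h spread widest, from 13.6 to 33.0 CPM, with 6 of 9 above every calf at 0 h, 1 below them all and 1 above every calf at 12 h. In all, 2 genes had groups that did not overlap (0.0175% of genes tested), and both were higher at 12 h.

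Of the lower genes, ENSBTAG00000000144 had the larger fold and the lower level. It ran from 8.41 to 16.9 CPM at 0 h with a median of 12.5, and from 3.09 to 11.8 at 12 h with a median of 7.03. All 9 calves at 12 h were below the 0 h median and 6 of 9 were below every calf at 0 h, but 3 lay within the 0 h range. The means of 12.7 ± 2.66 and 7.54 ± 2.69 CPM (SD, n = 9) gave a log2 fold change of -0.69 (SE 0.181, 95% confidence interval -1.05 to -0.318) or 1.61-fold lower, with an edgeR adjusted p of 0.9997. The level at 6 h, 10.5 ± 2.22 CPM (SD, n = 9), lay between the other two.

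Within the 12 h group, ENSBTAG00000000144 was compared between deep and other libraries, whose values overlapped. The 5 deep libraries had 8.88 ± 2.59 CPM (SD, n = 5), with values of 5.90 to 11.8. The other 4 had 5.85 ± 1.91 (SD, n = 4), with values of 3.09 to 7.21 and as few as 5 counts in a library. The deepest library stood at 6.38 CPM, below 2 of those 4. Without the 5 deep libraries the estimate was -1.13 on the log2 scale (SE 0.256, edgeR adjusted p = 0.674). The part of depth in this gene's level was not tested.

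ENSBTAG00000002907 ran from 67.7 to 105.9 CPM at 0 h with a median of 80.3. At 12 h its lowest, median and highest values were 46.9, 66.2 and 72.9 CPM. Again 6 of 9 calves at 12 h were below every calf at 0 h and 3 lay within the 0 h range, while replicate 3 at 0 h stood well above the rest of its group. The means of 79.9 ± 11.6 and 64.3 ± 8.24 CPM (SD, n = 9) gave a log2 fold change of -0.32 (SE 0.086, 95% confidence interval -0.494 to -0.145), with an edgeR adjusted p of 0.9997. At 6 h the level was 82.0 ± 5.66 CPM (SD, n = 9), with every calf above all those at 12 h. When all libraries were thinned at random to 972578 counts, the total of the smallest library, its log2 fold change ran from -0.38 to -0.16 over 5 draws, with a median of -0.28.

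**Figure D1:**
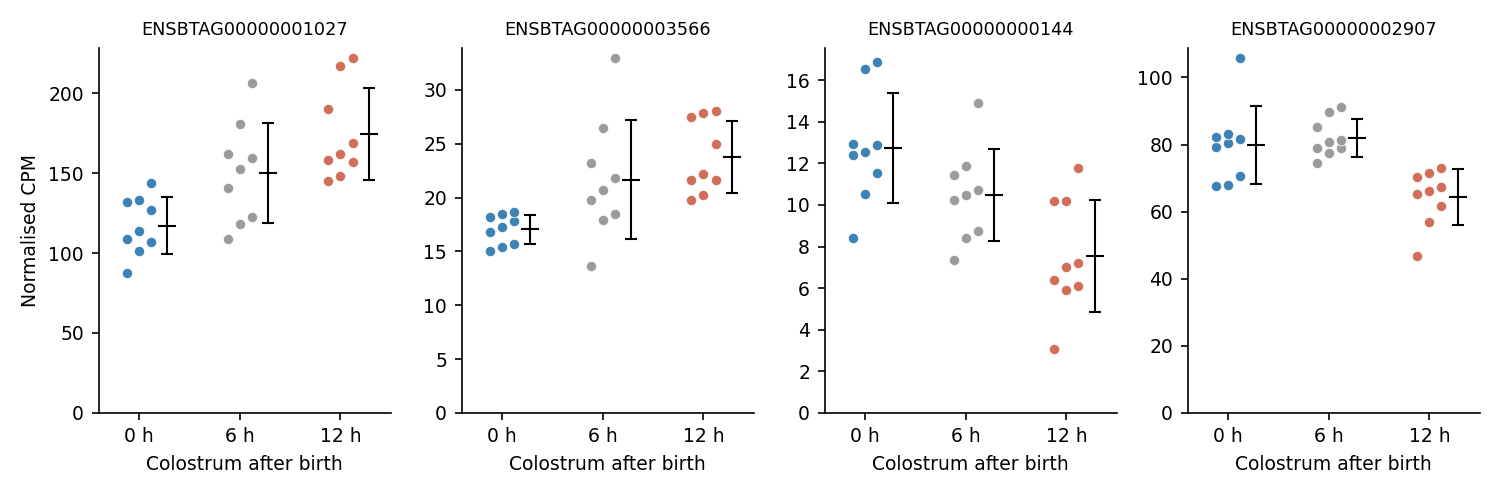
Normalised CPM (vertical axis, from 0) of the 4 genes named, by time of colostrum after birth; points are calves, and the bar beside them the mean and SD of 9. For ENSBTAG00000001027 and ENSBTAG00000003566 every calf at 12 h lies above every calf at 0 h, and for the other genes 3 of the 9 calves at 12 h lie within the range at 0 h.

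Over all genes tested, estimates had a median size of 0.09 on the log2 scale, with a median standard error of 0.137. TMM scaling centres the fold changes, so the 50.3% of genes with an estimate above 0 says nothing of direction. From the least to the most abundant of 4 classes of genes this share was 51.9%, 53.8%, 49.2% and 46.2%. Estimates passed 1.5-fold for 54 of the 11429 genes tested, 26 higher and 28 lower. Of the 54, 27 were in the least abundant class. The 10 most abundant genes all lay within 0.15 of 0 on the log2 scale, from -0.03 to 0.15, with 9 of 10 above 0 and a smallest edgeR adjusted p of 1.

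What could be seen of a gene depended on its abundance. Among the 2858 least abundant genes, at 5.35 to 14.7 CPM, estimates carried a median SE of 0.204 on the log2 scale. The confidence interval stayed within 1.5-fold for 58% of them and within 2-fold for 96.5%. Among the 2857 most abundant, above 59.3 CPM, the median standard error was 0.0934, and these shares were 95.2% and 98.8%. The middle classes, in order of abundance, had 88.5% and 96.2% within 1.5-fold, and 98.7% and 99.3% within 2-fold. The shares therefore did not rise further in the most abundant class. The share of genes at an unadjusted p under 0.05 was similar across abundance: 3.04% in the least abundant class, 3.82% and 3.26% in the middle classes and 3.89% in the most abundant.

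**Figure D2:**
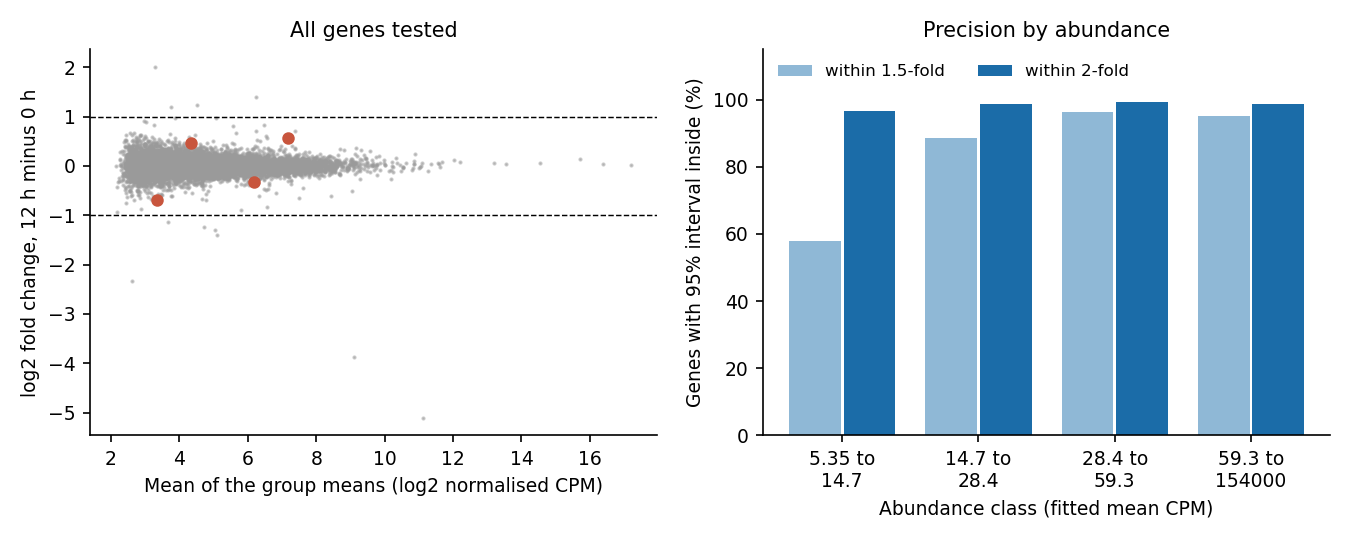
Left, log2 fold change of 12 h against 0 h for each of 11429 genes against the log2 of the mean of the group means in normalised CPM; red points are the 4 genes named and dashed lines mark 2-fold. Right, percentage of genes whose 95% confidence interval stays within 1.5-fold (light) or 2-fold (dark) in 4 abundance classes, at 58% in the least and 95.2% in the most abundant class for 1.5-fold.

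Some of the largest estimated changes rested on few calves. An estimate of over 2-fold was reached by 11 genes (0.0962% of genes tested), 4 higher and 7 lower, each with an edgeR adjusted p of 0.9997 and 8 with an unadjusted p under 0.05. In the group with the higher mean, a single calf held from 19.4% to 90.2% of the summed CPM, where an even share among 9 calves is 11.1%. That share was 50% or more for 2 of the 11 genes. The most extreme of these genes, with a log2 fold change of -5.10 (SE 1.92), reached 35160 CPM in 1 calf at 0 h, and the group medians were 51.8 CPM at 0 h and 18.7 at 12 h. For 4 of the 11 genes the estimate fell below 2-fold when 1 calf was left out, and for 1 gene the group medians differed in the opposite direction to the estimate.

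In 4 of the 11 no calf held more than 25% of the sum. The group medians differed by more than 2-fold for 6 of the 11, which include the 2 genes with most of their sum in a single calf. For 1 further gene the median was 0 CPM at 0 h and 3.70 at 12 h, so no ratio was taken. Of the higher genes among the 11, the one with the smallest unadjusted p had medians of 13.2 CPM at 0 h and 28.6 at 12 h. Its estimate was 1.24 on the log2 scale (SE 0.328, edgeR adjusted p = 0.9997), with no calf above 20.7% of the sum. Of the lower ones, the gene with the smallest unadjusted p had medians of 36.4 CPM at 0 h and 18.3 at 12 h, just under 2-fold apart. It was estimated at -1.29 on the log2 scale (SE 0.354, edgeR adjusted p = 0.9997), with a largest share of 23.4% for 1 calf. Both kept an estimate of over 2-fold in each of the 18 fits without a calf.

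The 3 genes called by DESeq2 fell into the same kinds. One was ENSBTAG00000001027 (log2 fold change 0.56, SE 0.113, DESeq2 adjusted p = 0.0138). The other two did not reach the count minimum of the edgeR test in enough calves. The higher of them had 13147 counts at 12 h, of which 99.5% came from 2 calves, and group medians of 3.304 CPM at 0 h and 3.01 at 12 h. The lower had 6646 counts at 0 h, of which 99.3% came from 2 calves, and medians of 4.29 and 1.37 CPM.

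The list of 400 genes at an unadjusted p under 0.05 was not steady from calf to calf. In fits without 1 calf, 272 to 338 of the 400 stayed at an unadjusted p under 0.05, the fewest without replicate 7 at 0 h, and 143 did so in all 18 fits. These 143, 86 higher and 57 lower, also had an unadjusted p under 0.05 in DESeq2 and limma voom. All these fits reuse the calves and counts that gave the list, so they are no independent check of it. The 400 were 3.5% of genes tested, where chance alone gives about 1 in 20. At equal library totals 362 to 367 of the 400 passed the filter over 5 draws, 361 to 366 kept their sign and 179 to 206 stayed at an unadjusted p under 0.05. Without the 5 deep 12 h libraries 172 did. Both settings leave fewer counts or calves to test with.

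Whole profiles were compared calf by calf. The distance between 2 calves was taken as the root mean square difference of log2 CPM over the genes tested. It averaged 0.532 within the 0 h group, 0.491 within the 12 h group and 0.508 between them. All 9 calves at 12 h were closer on average to their own group, and 0 of the 9 at 0 h were. At equal library totals the 3 averages were 0.561, 0.554 and 0.555, and 6 of 9 calves at 12 h and 2 of 9 at 0 h were closer to their own group. In counts as deposited the nearest single calf belonged to the same group for 6 of the 18, where 8 of the 17 other calves are of the same group. This held for 1 of the 9 calves at 0 h and 5 of the 9 at 12 h.

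The lower distance within the 12 h group did not pass the test. The difference of the within-group averages was -0.0409 (two-sided exact permutation p = 0.29, adjusted p = 0.724) and -0.00694 at equal totals (exact permutation p = 0.615, adjusted p = 0.907). The first and second principal components of the 18 profiles, with 18.5% and 10.5% of the variance, did not differ past the threshold between the groups (exact permutation p = 0.548 and 0.322, adjusted p = 0.896 and 0.724).

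**Figure D3:**
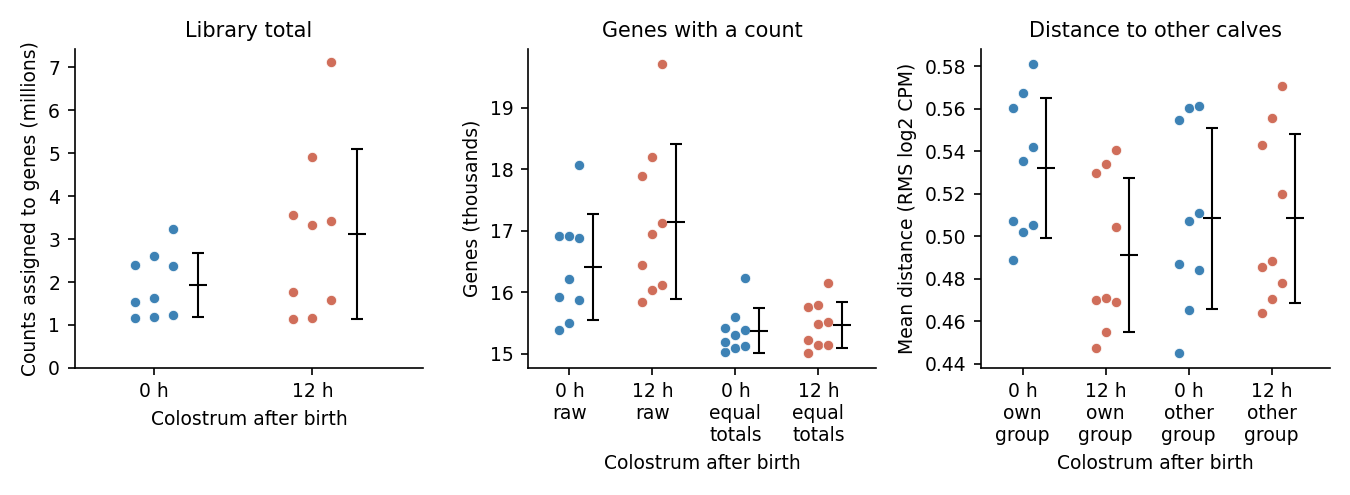
Counts assigned to genes (left), genes with a count before ("raw") and after thinning all libraries to equal totals (middle), and the mean distance of each calf to the others of its own group and to the other group (right), for 0 h (blue) and 12 h (red); each point is 1 calf, and the mean and SD of 9 stand beside them. Totals at 12 h range from 1137558 to 7125552, and the gap in genes with a count narrows at equal totals.

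The balance between directions in 2 further comparisons of the groups differed between counts as deposited and equal library totals. The first asked whether calves of one group differed more among themselves, gene by gene. limma on the absolute deviations from the group mean called 0 of 11429 genes (0% of genes tested), with a smallest adjusted p of 0.138. An unadjusted p under 0.05 was reached by 590 genes (5.16% of genes tested, where chance alone gives about 1 in 20). Of these, 433 were wider at 0 h and 157 wider at 12 h. The genes share the same calves, so this split is not a count of independent events. At equal library totals 0 genes were called and this imbalance was nearly gone, with 324 wider at 0 h and 303 wider at 12 h. The median SD of log2 CPM over genes was 0.282 at 0 h and 0.261 at 12 h as deposited, and 0.300 and 0.303 at equal totals. Without the 5 deep 12 h libraries the direction turned, with 792 genes wider at 12 h and 268 wider at 0 h at an unadjusted p under 0.05. That fit tested 11773 genes and called 15 of them, all wider at 12 h, where 4 calves were then left. Over all genes in that fit the groups were close. The median SD was 0.2825 at 0 h and 0.2856 at 12 h, and 51.2% of genes were wider at 12 h.

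The second asked which genes had a count in more calves of one group, including genes too rare for the edgeR test. In counts as deposited, 91 of the 9437 genes tested reached an unadjusted p under 0.05 by Fisher's exact test. Of the 91, 90 had more calves at 12 h and 1 had more at 0 h. After adjustment over all genes tested 0 passed, with a smallest adjusted p of 0.388. One gene had a count in all 9 calves at 12 h and in none at 0 h. At equal library totals, 0 of 8853 genes passed the adjustment (0% of genes tested; smallest adjusted p = 1), and 50 had an unadjusted p under 0.05, 30 with more calves at 12 h and 20 with more at 0 h. No gene then had a count in all calves of one group and none of the other, and the largest difference was 6 calves. A count in at least 7 calves of one group and at most 2 of the other was seen for few of the 8853 genes. There were 12 in favour of 12 h and 9 in favour of 0 h.

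**Figure D4:**
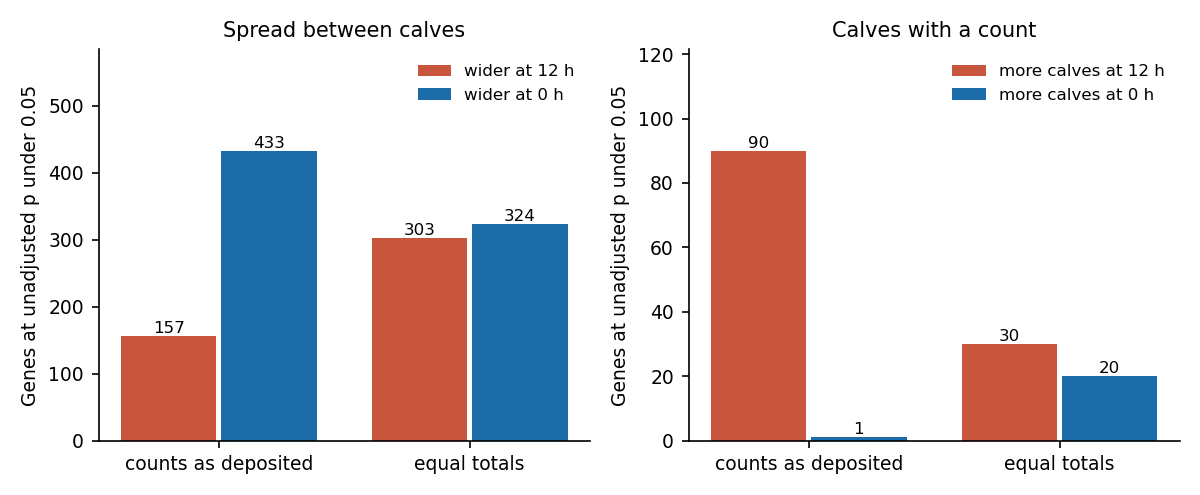
Number of genes (vertical axis) at an unadjusted p under 0.05 in the comparison of spread between calves (left, limma) and of calves with a count (right, Fisher's exact test), split by direction, for counts as deposited and thinned to equal totals. The excess of 433 over 157 on the left and of 90 over 1 on the right shrinks to 324 against 303 and 30 against 20 at equal totals.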

How the data were processed

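The authors deposited unnormalised read counts for 24616 genes in 27 libraries. Build UMD3.1 and the tools HTSeq, SAMtools 1.4, TopHat and TopHat2 2.1.1 stand in the submitters' processing notes, with no role or order. Not given in the sources used here: annotation release, strand setting and treatment of reads with several matches. The TruSeq kit, version 2, named in the labels' protocols, does not mark strand, so genes that overlap on opposite strands are uncertain. Near-identical genes are also uncertain, since the treatment of reads with several matches is not known. Columns were matched to calves by name. No batch was given.

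In R 4.3.3, edgeR 4.0.16 kept 11429 genes (filterByExpr defaults: minimum count 10, total 15; 98.1% to 99% of each library's counts), scaled totals by TMM and fitted a robust quasi-likelihood model to all 27 calves. The contrast of 12 h and 0 h was adjusted by Benjamini-Hochberg. Its standard errors were the size of the log2 fold change over the square root of the F statistic, and confidence intervals were built from them. For some genes these intervals are narrower than the p implies. Of all intervals, 401 left out 0, against 400 genes at an unadjusted p under 0.05. Spread was tested with limma 3.58.1 on absolute deviations of log2 CPM (prior count 2), detection by Fisher's exact test on counts thinned to 972578, and library measures by exact permutation over 48620 splits, whose smallest p is 4.1e-05. Alternatives used DESeq2 1.42.0, limma voom and sva 3.50.0. Scripts were tested on simulated data. No 2 of the 18 libraries agreed within counting noise (153 pairs, smallest chi-square per gene 2.59).

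The members, the 17 pathway and 18 cell type lists and the tests were chosen with earlier results of these data known. No list could be used, since no identifier matched a symbol. Without symbols, the rule named the 2 higher and 2 lower genes with the smallest p. The DESeq2 calls and the genes over 2-fold were singled out after their values were seen.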

Additional observations from a re-analysis of the deposited data

Results flagged for a closer look

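Dixon's gap test was applied to 30 sets of 9 calves, each set a library measure or named gene at 1 feeding time. It marked 4 sets, where chance marks about 1 in 20. For replicate 3 at 0 h, 16239 genes had a count at equal library totals, and the nearest other value was 15600. ENSBTAG00000002907 reached 105.9 CPM in that calf, against 83.1 in its neighbour. The 10 most abundant genes took 30.1% of the counts of replicate 7 at 0 h, below a nearest value of 33.6%. In replicate 7 at 12 h, the deepest library, they took 42.7%, above a nearest value of 36.9%.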

How the results depend on the processing

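The count of 0 genes called became 1 without a filter on low counts, 3 in DESeq2, 1 with 2 surrogate variables and 1 in the third of 5 thinning draws, with smallest adjusted p values of 0.0126, 0.0138, 0.000494 and 0.00532. Leaving out single calves gave 0 to 1 calls and a smallest adjusted p of 0.0424 to 0.354, with the 1 call without replicate 9 at 0 h. In each of these fits the gene called, or in DESeq2 1 of the 3, was ENSBTAG00000001027. RLE size factors, 1 CPM in 9 libraries, the 18 calves alone, limma voom, no robust option, the calf number or the library total as a covariate, a threshold of 0.1 and leaving out the 5 deep libraries called 0.

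With the replicate number as a block, 0 genes were called and the smallest adjusted p was 0.0944. Calves that share only a number did not deviate together (correlations of -0.164 to 0.197, 1 of 9 over 0.1), and 0 of 9 correlated best with their own number. The block also left the calls of the 4 named genes and of the spread test as they were, and was not run for detection or the library measures.

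The 4 genes named kept their direction in all 35 other fits. These fits reuse the calves and counts by which the 4 were picked, so a change of sign was unlikely. Genes at an unadjusted p under 0.05 ran from 365 to 973 over 12 other settings, against 400. The 973 came from the fit without a filter. Settings differed in the number of genes tested, so these counts cannot be compared as shares. The spread test went from 0 to 15 calls, and from 590 to 1060 genes at an unadjusted p under 0.05, 792 of them wider at 12 h, without the 5 deep libraries, and to 0 to 2 without single calves (2 without replicate 5 at 12 h, and 1 each without replicates 8 and 9 at 0 h and 2, 6, 7 and 9 at 12 h). No library measure passed in any of 167 further tests. The causes were not tested. The leave-out of the deep libraries, the further thinning draws and detection in counts as deposited were added after seeing the data. Standard errors were largest for the least abundant genes, and the part of depth in this was not tested.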
